A study of Mus musculus with 6 samples.

Results

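DNA replication and G1/S genes are the genes that a cell needs to enter S phase and copy its DNA once. The 42 genes described here were found by symbol in the deposited table of 34590 genes: 10 genes that license replication origins, 6 that fire them, 14 of the replication fork and its polymerases, 4 that supply nucleotides, 5 regulators of the passage from G1 to S phase and 3 that restore chromatin on new DNA. All 42 were in the table and all 42 passed the filter on low counts, among 17345 genes that did. The rule that picks them uses gene symbols and no measured value.

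The RNA came from 3 host mice. Each was a WT female whose number 4 (inguinal) mammary fat pads had been cleared of their own epithelium, and each carried WT.EGFP+ mammary epithelium in the left gland and Adamts18-/-.EGFP+ epithelium in the right gland, here called WT and Adamts18 KO glands (n = 3 each). The Adamts18-/- and EGFP lines were kept on a C57BL/6JOlaHsd background, and the strain of the hosts is not given in the sources used here. The grafts of both genotypes expressed EGFP under the chicken β-actin promoter, and the host tissue around the grafts was WT. The knockout allele lacks the exons that encode the zinc-binding catalytic site of Adamts18, a secreted metalloprotease. The age of these glands is not given in the sources used here. Genotype and body side cannot be told apart in this layout, and the 2 glands of a mouse share its hormonal state.

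Total counts lay between 53875123 and 71595924 per library, and no member had fewer than 13 reads in any library. Adamts18 itself had 3.61, 9.92 and 6.80 CPM (counts-per-million, scaled with TMM factors) in WT glands, given here and throughout in the order of mice 1, 2 and 3, and 2.75, 4.87 and 3.29 CPM in KO glands, a log2 difference of -0.83 (SE 0.194, edgeR quasi-likelihood test, unadjusted p = 0.00922, adjusted p = 0.987). Reads from exons outside the deletion can enter these counts. The paper also reports stromal Adamts18 expression, detected in WT fat pads that carried Adamts18-/- epithelium. A remaining level in KO glands is thus no test of the labels, and its source was not tested. The labels describe EGFP-positive cells sorted by flow cytometry, but 30 pan-epithelial genes summed to 1780 to 3098 CPM per library, against 8925 to 12305 CPM for 8 fibroblast genes and 7836 to 17961 CPM for 8 adipocyte genes. The libraries thus held RNA of several cell types. In such bulk samples, fewer cells of a type and less RNA per cell cannot be told apart.

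In late M and G1 phase the origin recognition complex, Cdc6 and Cdt1 load the Mcm2-7 helicase onto origins, and at the start of S phase Cdc45, the GINS complex and Mcm10 turn it into a moving fork. Cyclin D and cyclin E with their kinases release the E2F factors from the Rb protein, and E2F in turn switches on many of the genes listed here. In the mammary gland, ovarian hormones drive epithelial proliferation, much of it through local growth factors.

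The promoters of 4 members are shown because E2F sites are a well known feature of such genes. The 4 were chosen after their values were seen: Mcm5 and Uhrf1 were highest in the KO gland of mouse 3, Mcm6 was an exception to that, and Rrm2 differed most between the glands of mouse 3. Each line holds the 200 bases before the RefSeq transcription start on the strand of the gene (GRCm38.p6), 5′ to 3′. Capitals mark matches on either strand to one of 4 E2F words, TTTCCCGC, TTTGGCGC, TTTCGCGC or TTTGCCGC, and matches that overlap run together.
Mcm5, a helicase subunit, chr8:75109309-75109508, plus strand: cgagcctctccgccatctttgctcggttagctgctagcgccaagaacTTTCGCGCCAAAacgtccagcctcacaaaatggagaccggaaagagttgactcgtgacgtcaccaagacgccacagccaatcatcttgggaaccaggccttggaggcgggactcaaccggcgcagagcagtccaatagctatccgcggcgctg
Mcm6, a helicase subunit, chr1:128359706-128359905, minus strand: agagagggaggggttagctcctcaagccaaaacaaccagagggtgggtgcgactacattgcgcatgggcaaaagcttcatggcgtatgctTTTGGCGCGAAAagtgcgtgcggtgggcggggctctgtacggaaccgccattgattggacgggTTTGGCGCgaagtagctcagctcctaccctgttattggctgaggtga
Uhrf1, which guides maintenance methylation, the second of 2 listed starts, chr17:56304113-56304312, plus strand: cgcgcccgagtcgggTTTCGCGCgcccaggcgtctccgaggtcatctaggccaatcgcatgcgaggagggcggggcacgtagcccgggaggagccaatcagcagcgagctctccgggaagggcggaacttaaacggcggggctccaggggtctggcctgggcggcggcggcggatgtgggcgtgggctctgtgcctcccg
Rrm2, the S phase subunit of ribonucleotide reductase, chr12:24708054-24708253, plus strand: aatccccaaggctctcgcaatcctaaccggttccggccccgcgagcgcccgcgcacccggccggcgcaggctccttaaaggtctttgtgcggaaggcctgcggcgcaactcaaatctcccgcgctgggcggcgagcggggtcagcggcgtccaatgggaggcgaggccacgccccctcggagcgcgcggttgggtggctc
In Mcm5 the matches began 153 bases before the start and in Uhrf1 185 bases before it. The sequence at the first listed start of Uhrf1, not shown, held no match. Mcm6 held 3 matches in 2 runs, the first of them 110 bases before the start, and Rrm2 held none of these letters.

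RefSeq promoter sequences of 300 bases (250 before the start and 50 after it) were at hand for 34 of the 42 members, and 15 of the 34 (44.1%) held an E2F word. The same words occurred in 2.60% of the 27025 genes with a promoter sequence and in 4.27% of those that passed the filter on counts. A gene with several listed starts was counted if any of them held a word. Among genes with 1 promoter sequence, 11 of 29 members (37.9%) and 2.32% of 22862 genes held one. The word was found in 7 licensing genes (Mcm3, Mcm5, Mcm6, Mcm7, Orc1, Cdc6 and Cdt1), in Gins3, in Rfc3, Pola1, Pold1, Pole2 and Lig1 of the fork, in E2f2 and in Uhrf1. The letters CCAAT, on either strand, occurred in 58.8% of the 34 members and in 41.1% of all genes with a promoter sequence. A match describes the letters only.

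Which of these genes differed between WT and Adamts18 KO epithelium was asked first, with the host mouse as a block. At the thresholds of the study (lower by over 20% or higher by over 25%, with an unadjusted p under 0.05) 1 of the 42 members, Ccne2, was higher in the KO glands, where 1.17% of all tested genes were called higher. None was lower, where 1.84% of all tested genes were. By adjusted p under 0.05 edgeR called 0 members and 0% of all genes, with 1 member and 670 genes at an unadjusted p under 0.05, and limma-voom also called 0 members and 0 genes. DESeq2 called 0 members and 71 genes (0.409%). The fitted log2 difference was above 0 for 39 of the 42 members, with a median of 0.21 against 0.00065 over all tested genes, but without mouse 3 it was above 0 for 18 of 42 with a median of -0.03.

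Ccne2 encodes cyclin E2, which activates Cdk2 at the start of S phase. Its level was 1.95, 1.65 and 2.77 CPM in WT and 3.12, 2.43 and 4.26 CPM in KO glands (2.12 ± 0.581 against 3.27 ± 0.928 CPM, SD, n = 3). It was higher in the KO gland of each mouse, by 1.59, 1.46 and 1.53 times. The ranges of the genotypes still overlapped, since the WT gland of mouse 3 (2.77 CPM) lay above the KO gland of mouse 2 (2.43 CPM). The fitted log2 difference was 0.62 (SE 0.158, edgeR, unadjusted p = 0.0129, adjusted p = 0.987). Ccne2 was the only member higher by over 25% in the KO gland of all 3 mice. The edgeR call was lost without the block (unadjusted p = 0.0894) and without mouse 1 (unadjusted p = 0.0889). Ccne2 (GRCm38 chr4:11191351-11204779) shares 609 of its 3495 annotated exon bases with Ints8 on the other strand. Ints8 had a mean of 46.6 CPM over all libraries, against 2.70 CPM for Ccne2. Its log2 difference was 0.05 (SE 0.075, edgeR, unadjusted p = 0.546). The part of Ints8 reads in the Ccne2 counts was not tested.

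The difference between the 2 glands of a mouse depended on the mouse. In mouse 1, 7 members were higher by over 25% in the KO gland (10.1% of all genes were) and 0 were lower by over 20% (7.15% of all genes). In mouse 2, 1 member was higher by over 25% (10.8% of all genes) and 9 were lower by over 20% (14.8% of all genes). In mouse 3, 34 members were higher by over 25% (17.9% of all genes) and 0 were lower by over 20% (19.5% of all genes). The 9 lower in mouse 2 were Mcm6, Orc1, Mcm10, Rrm2, Tk1, E2f2, Ccnd1, Chaf1a and Chaf1b. The median log2 difference of the members was 0.05, -0.13 and 0.63 in mice 1, 2 and 3, and 8 of the 42 members (19.0%) had the same sign in all 3 mice, 6 of them higher and 2 lower in KO, a share close to the 23.4% of all tested genes. With 1 pair of glands per mouse these differences have no replicate check, and the difference between mice in the genotype effect could not be tested.

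**Figure D1:**
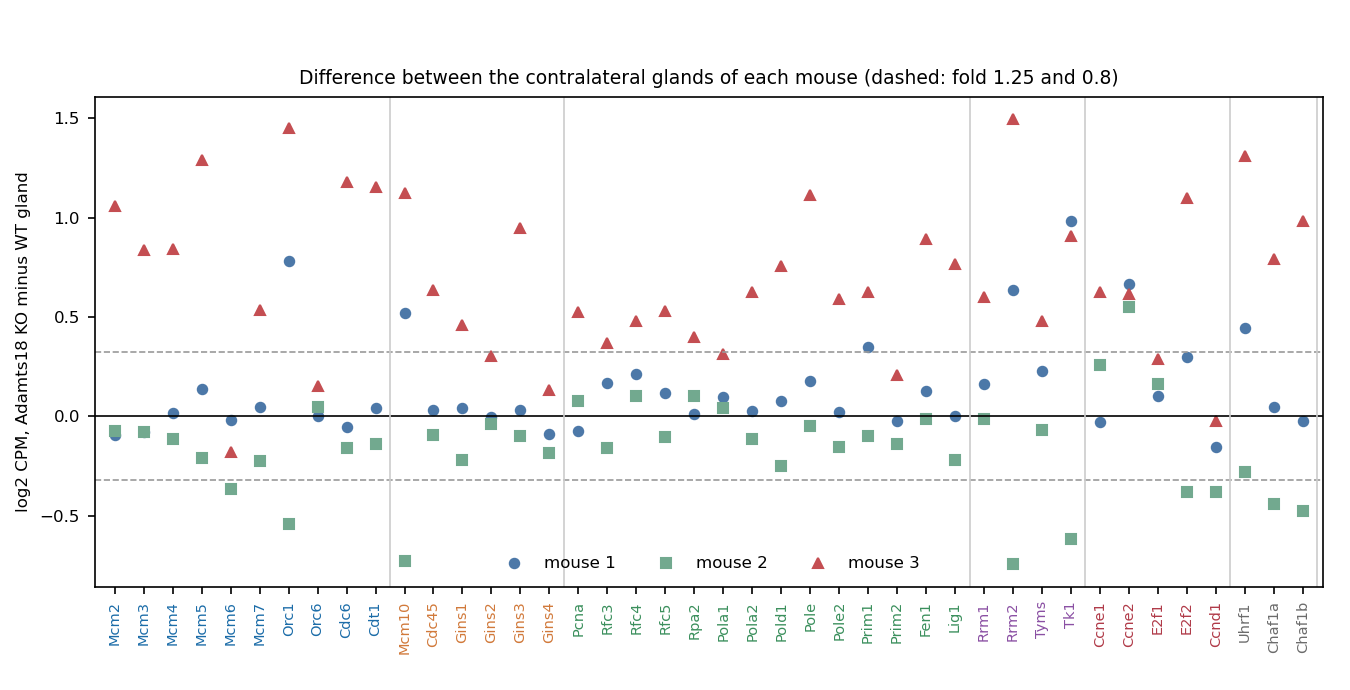
Log2 difference in CPM between the Adamts18 KO and the WT gland of each mouse (y axis) for the 42 members (x axis, coloured by role and separated by vertical lines), with 1 point per mouse. In mouse 3 all members but Mcm6 and Ccnd1 lie above 0, and in mouse 2 all but 8 lie below it.

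The KO gland of mouse 3 had the highest level of the 6 libraries for 39 of the 42 members, the exceptions being Mcm6, Gins4 and Ccnd1. Among all 17345 tested genes, the same gland was the highest for 5722. The summed level of all members was 515, 629 and 716 CPM in WT and 523, 556 and 1013 CPM in KO glands. The WT gland of mouse 3 was above the mean log2 CPM of the WT glands of mice 1 and 2 for 40 of the 42 members. Among all 17345 tested genes this held for 8816. So for most members mouse 3 was high in both glands and its KO gland was the higher of the 2.

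**Figure D2:**
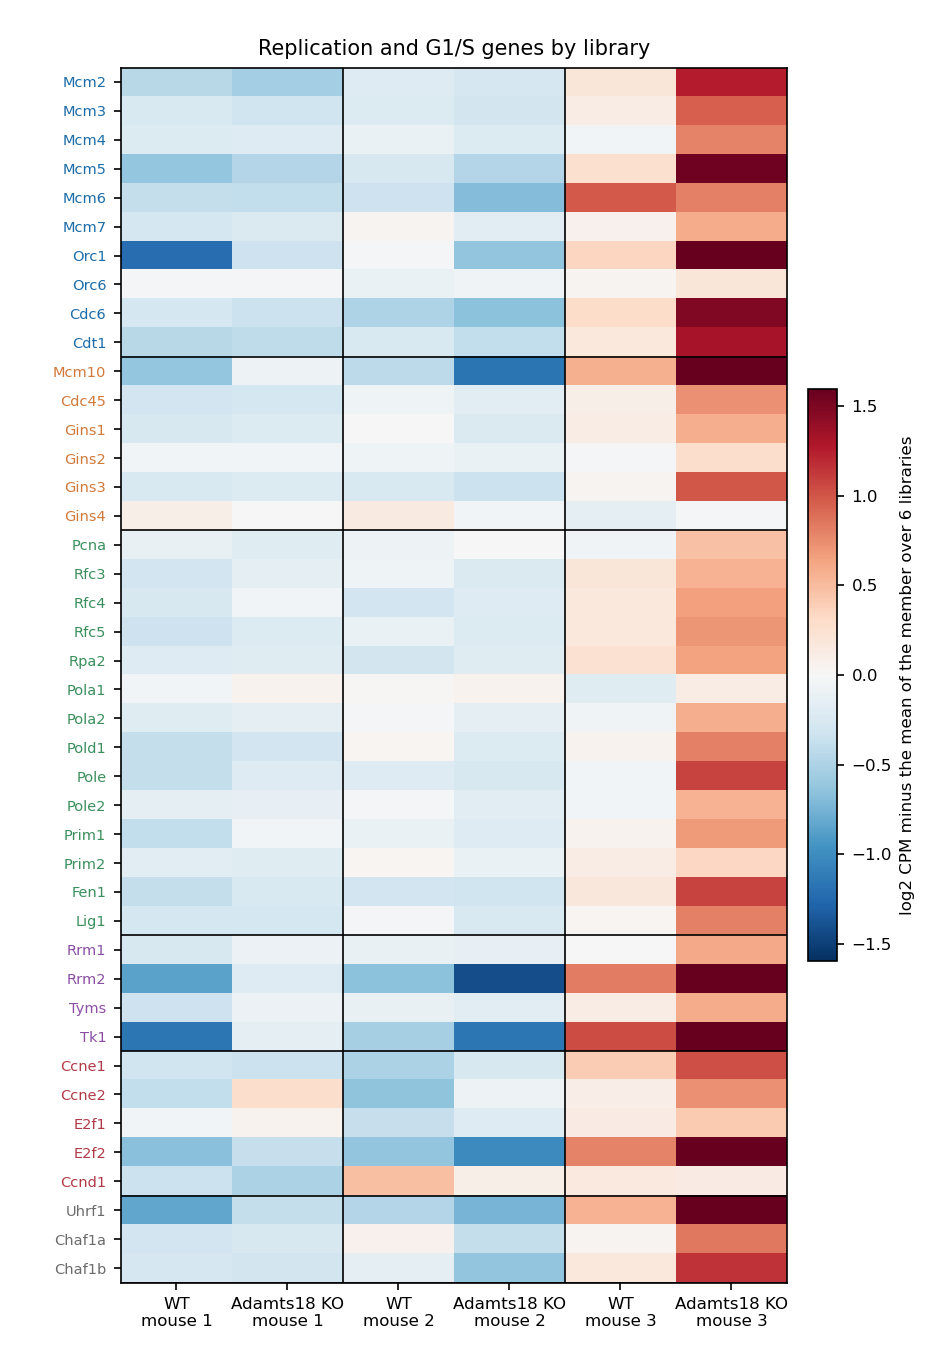
Each cell is the log2 CPM of a member (row, grouped by role) in a library (column), minus the mean of that member over the 6 libraries; colours are limited at 1.6 on either side. The right-hand column, the KO gland of mouse 3, is red for almost every member, the WT gland of mouse 3 is paler, and the row of Mcm6 is red in both.

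Among the helicase and licensing genes in mouse 3 the KO gland exceeded the WT gland for 5 of the 6 Mcm2-7 genes, by 0.53 (Mcm7) to 1.29 (Mcm5) on the log2 scale. For Mcm5 the levels were 8.17, 10.5 and 15 CPM in WT and 9.01, 9.04 and 36.7 CPM in KO glands. Cdc6, which loads the helicase, had 1.95, 1.68 and 2.90 CPM in WT and 1.87, 1.5 and 6.61 CPM in KO glands. In mice 1 and 2 the 2 glands of each mouse lay close together for both genes, and only mouse 3 separated them.

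Mcm6 stood apart from its partners in the same hexamer, a difference in pattern that was not tested. Its level was 35.6, 36.9 and 91.6 CPM in WT and 35.1, 28.6 and 80.8 CPM in KO glands, so that both glands of mouse 3 were high and the KO gland was the lower of the 2. The WT gland of mouse 3 exceeded those of mice 1 and 2 by 1.34 on the log2 scale for Mcm6, against 0.12 (Mcm4) to 0.70 (Mcm5) for the 5 other helicase genes. For genotype, Mcm6 had the smallest p of the licensing genes (log2 difference -0.19, SE 0.0925, edgeR, unadjusted p = 0.0996, adjusted p = 0.987). Mcm6 was also the only member past adjusted p under 0.05 in the F test of any difference between host mice (adjusted p = 0.047, with 0.628% of all genes called), while 22 members (52.4%) and 27.2% of all genes had an unadjusted p under 0.05 in that test. It was the most abundant licensing gene per length, at a mean of 11 CPM per kb of exon.

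Among the origin firing genes the 4 GINS subunits, which form a complex of 1 copy each, had unlike values across the libraries. Gins3 had 3.38, 3.39 and 4.14 CPM in WT and 3.46, 3.17 and 8.0 CPM in KO glands (log2 difference 0.30, SE 0.260, edgeR, unadjusted p = 0.306). Gins4 had 21.7, 22.5 and 18.3 CPM in WT and 20.4, 19.8 and 20.1 CPM in KO glands (log2 difference -0.05, SE 0.0995, edgeR, unadjusted p = 0.655). The high KO gland of mouse 3 seen for Gins3 was thus absent for Gins4, whose WT gland was instead the lowest in mouse 3. Per kb of exon Gins4 stood at 15.2 CPM and the other 3 subunits at 1.16 to 1.72 CPM, and Gins2 shares 67.3% of its exon bases with Gse1 on the other strand. Mcm10, which joins the helicase at firing, had 1.38, 1.58 and 3.13 CPM in WT and 1.99, 0.941 and 6.85 CPM in KO glands, with the KO gland higher in mice 1 and 3 and lower in mouse 2.

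All 14 fork and polymerase genes had a fitted log2 difference above 0, with a median of 0.18 and no p under 0.13. In mouse 3 all 14 were higher in the KO gland, 12 of them by over 25%, with a median of 0.56 on the log2 scale. Pcna, the sliding clamp of the polymerases and the most abundant of the group at 22.0 CPM per kb, had 47.7, 49.2 and 50 CPM in WT and 45.4, 52.0 and 71.9 CPM in KO glands (log2 difference 0.18, SE 0.134, edgeR, unadjusted p = 0.250). Rfc4, a subunit of the clamp loader, had 4.96, 4.78 and 6.68 CPM in WT and 5.76, 5.13 and 9.32 CPM in KO glands (log2 difference 0.27, SE 0.145, edgeR, unadjusted p = 0.130). Rfc4 was one of the few members higher in the KO gland of each mouse, while 5 of the 6 libraries were nearly level for Pcna. The catalytic subunit of polymerase ε, Pole, had the largest difference of the group in mouse 3 (1.11 on the log2 scale), and that of polymerase α, Pola1, one of the smallest (0.31), with 12.2 and 15.1 CPM in the 2 glands.

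Nucleotide supply held the widest swings. Rrm2 had 2.51, 2.87 and 7.98 CPM in WT and 3.92, 1.70 and 22.6 CPM in KO glands. Tk1, the S phase thymidine kinase, had 1.88, 2.90 and 8.61 CPM in WT and 3.75, 1.88 and 16.2 CPM in KO glands. Both were higher by over 25% in the KO gland of mice 1 and 3 and lower by over 20% in that of mouse 2, as were Orc1 and Mcm10, and no other member had this combination. Orc1 rested on few reads: 13, 26 and 31 in WT and 18, 17 and 96 in KO glands. Rrm1, the large subunit that pairs with Rrm2, varied less, with 28.5, 31.4 and 34.3 CPM in WT and 31.9, 31.0 and 52.0 CPM in KO glands (log2 difference 0.25, SE 0.138, edgeR, unadjusted p = 0.135).

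The regulators of G1 and S phase shared no 1 pattern. Ccnd1, cyclin D1, a mitogen-responsive gene of G1 and the most abundant member per length at 26.5 CPM per kb, had 95.3, 169 and 135 CPM in WT and 85.5, 130 and 133 CPM in KO glands. It was the only regulator lower in the KO gland of each mouse (log2 difference -0.19, SE 0.094, edgeR, unadjusted p = 0.107), and the KO gland of mouse 3 did not stand out. Ccnd1 shares 23.4% of its exon bases with LTO1 on the other strand. E2f2, an activating E2F, had 3.61, 3.70 and 10 CPM in WT and 4.46, 2.84 and 21.4 CPM in KO glands, whereas E2f1 ranged only from 6.28 to 10.8 CPM over the 6 libraries.

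Of the chromatin genes, Uhrf1 had 3.97, 5.12 and 10.4 CPM in WT and 5.41, 4.21 and 25.9 CPM in KO glands (log2 difference 0.50, SE 0.329, edgeR, unadjusted p = 0.191). Chaf1a and Chaf1b, which deposit histones behind the fork, were both lower by over 20% in the KO gland of mouse 2 and higher by over 25% in that of mouse 3. Chaf1a shares 52.5% of its exon bases with Ubxn6 on the other strand.

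**Figure D3:**
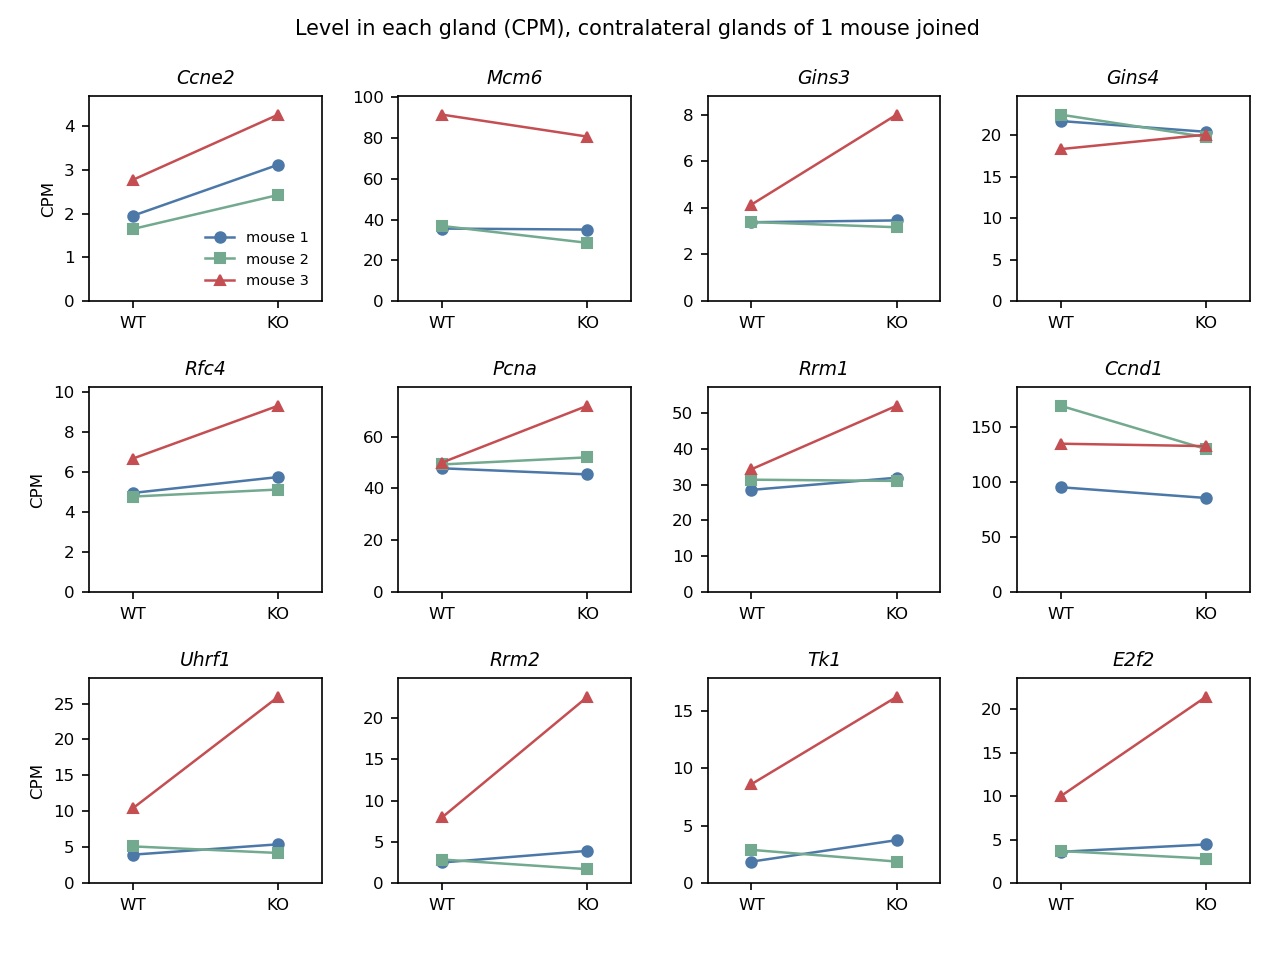
CPM (y axis, from 0) of 12 members in the WT and KO gland of each mouse, with a line joining the 2 glands of a mouse. Ccne2 runs upward in every mouse, Ccnd1 downward, Mcm6 is high in both glands of mouse 3, and Rrm2, Tk1, E2f2 and Uhrf1 peak in the KO gland of mouse 3.

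Mouse 3 was then set against mice 1 and 2, with genotype in the model. At adjusted p under 0.05, 7 of the 42 members were higher in mouse 3 (6.73% of all genes were) and 0 were lower (5.29% of all genes). They were Mcm6, Rpa2, Rrm2, Tk1, Ccne1, E2f2 and Uhrf1, chosen here by this call, with log2 differences of 0.66 (Rpa2, which coats single-stranded DNA; SE 0.127) to 2.37 (Rrm2; SE 0.459) and edgeR adjusted p from 0.0187 (Mcm6) to 0.0435 (Rrm2). The median over all 42 members was 0.66, against 0.0062 over all genes. It was 0.33 when only WT glands were compared and 0.98 when only KO glands were.

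The members called rested on the 2 glands of mouse 3 to different degrees. Without the KO gland of mouse 3 the calls were Mcm6 and E2f2 (2 members, 4.17% of all genes), and without its WT gland they numbered 32 (15.1% of all genes). Without mouse 1 or without mouse 2 there were 0, when 0.102% and 0.0571% of all genes were called. DESeq2 called 23 members, with 11.4% of all genes. All of these calls set 1 mouse against 2, with the 2 glands of a mouse as its replicates. The host mouse, its grafts, its cycle stage and its dissection cannot be told apart.

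**Figure D4:**
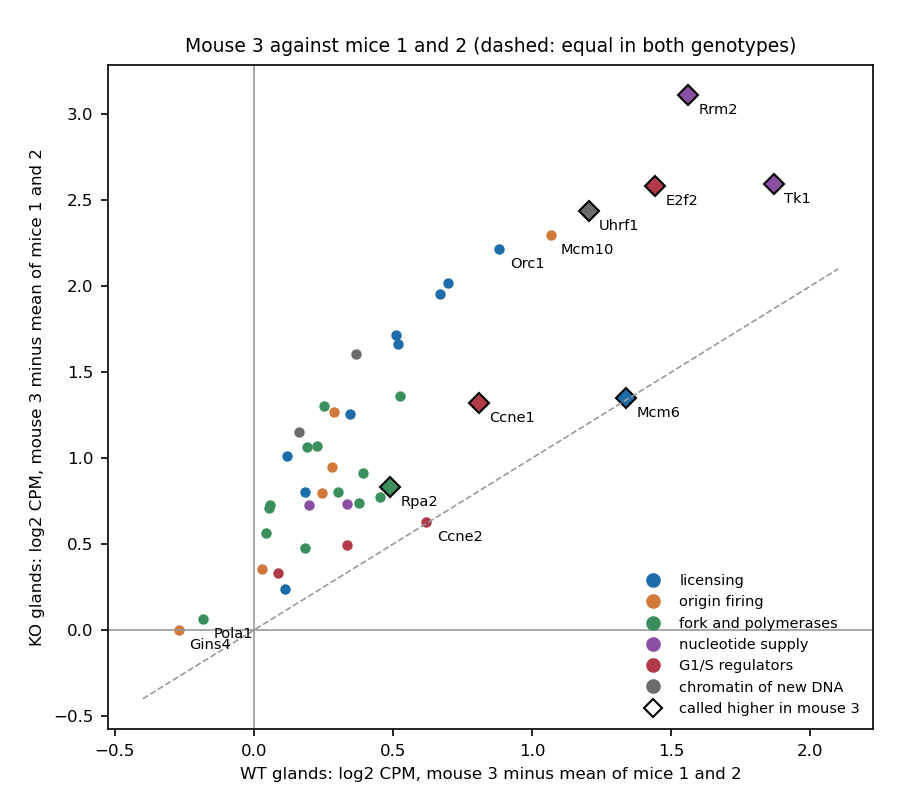
For each member, the log2 CPM of mouse 3 minus the mean of mice 1 and 2, in WT glands (x axis) and in KO glands (y axis), coloured by role; diamonds mark the 7 members called higher in mouse 3 and the dashed line marks equal values. Most members lie above the line, and Mcm6 and Ccne2 lie on it.

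The E2F word, which played no part in choosing the genes, was set beside these values as a description. The 15 members with the word had a median log2 difference between the glands of mouse 3 of 0.83, the 19 without it 0.63 and the 8 without a promoter sequence 0.38. In mouse 1 the medians were 0.05, 0.10 and 0.0062, so that the members with the word had the lower median of the first 2 groups, and in mouse 2 they were -0.21, -0.07 and -0.13. Of the 7 members called higher in mouse 3, 3 held the word (Mcm6, E2f2 and Uhrf1) and 4 did not, Rrm2 and Tk1 among them.

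Genes with neighbouring roles gave the following. Of 30 further replication genes 0 passed the thresholds for genotype in either direction, of 16 further nucleotide supply genes 0, of 21 further G1/S regulators 0 and of 9 further chromatin and histone supply genes 0. Of 7 Cdk inhibitors 1 did: Cdkn2a, the Ink4a/Arf locus, had 0.688, 0.767 and 1.05 CPM in WT and 1.15, 1.49 and 3.32 CPM in KO glands (log2 difference 1.13, SE 0.261, edgeR, unadjusted p = 0.00876, adjusted p = 0.987). With mouse 3 set against mice 1 and 2 (edgeR adjusted p under 0.05), 6.73% of all genes were called higher and 5.29% lower. Of the 30 replication genes 3 were called higher in this comparison (Recql4, Pold4 and Clspn). Of the 21 regulators 2 were higher (Ccna2 and E2f8) and 1 was lower (Rb1). Of the 9 chromatin genes 2 were higher (Asf1b and Hells), and 1 Cdk inhibitor was lower (Cdkn2c). The further replication genes had a median log2 difference of 0.34 between the glands of mouse 3, where the 42 members had 0.63.

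The mitosis genes, which follow S phase in the cycle, differed from the members in mouse 1. Their 32 genes summed to 139, 117 and 335 CPM in WT and 278, 87.1 and 603 CPM in KO glands. In mouse 1, 29 of the 32 were higher by over 25% in the KO gland, with a median log2 difference of 1.12, where 7 of the 42 members were, with a median of 0.05. In mouse 2 and mouse 3 both lists lay on the same side of 0, with medians of -0.34 and 0.78 for the mitosis genes. The difference between the lists was not tested. For genotype 2 mitosis genes were called higher, Kif11 and Cenpa. Against mice 1 and 2, 17 of the 32 were called higher in mouse 3 (edgeR adjusted p under 0.05), where 6.73% of all genes were.

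Among the markers of other cell types, those of B and T cells moved with the members in mouse 3. The summed level of 6 B cell genes was 14.2, 11.3 and 121 CPM in WT and 11.1, 8.38 and 643 CPM in KO glands, and that of 8 T cell genes was 38.2, 78.2 and 199 CPM in WT and 34.3, 51.0 and 549 CPM in KO glands. All 6 and all 8 were highest in the KO gland of mouse 3, and 5 of the 6 and all 8 were called higher in mouse 3 at adjusted p under 0.05. None of these markers was at 0 in any library. The 8 adipocyte genes summed to 10086 and 7836 CPM in the WT and KO glands of mouse 3, against 15487 to 17961 CPM in the other 4 libraries. Among the pan-epithelial genes 26 of 30 were lower by over 20% in the KO gland of mouse 3 and 29 of 30 in that of mouse 2, but only 1 of 30 in that of mouse 1, where 2 were higher by over 25% and the median log2 difference was 0.03. The part of these cell types in the levels of the members was not tested.

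Skeletal muscle markers did not follow the members. Their 8 genes summed to 280, 818 and 2704 CPM in WT and 10705, 10564 and 1830 CPM in KO glands, so that they were highest in the KO glands of mice 1 and 2, where the members were not.

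**Figure D5:**
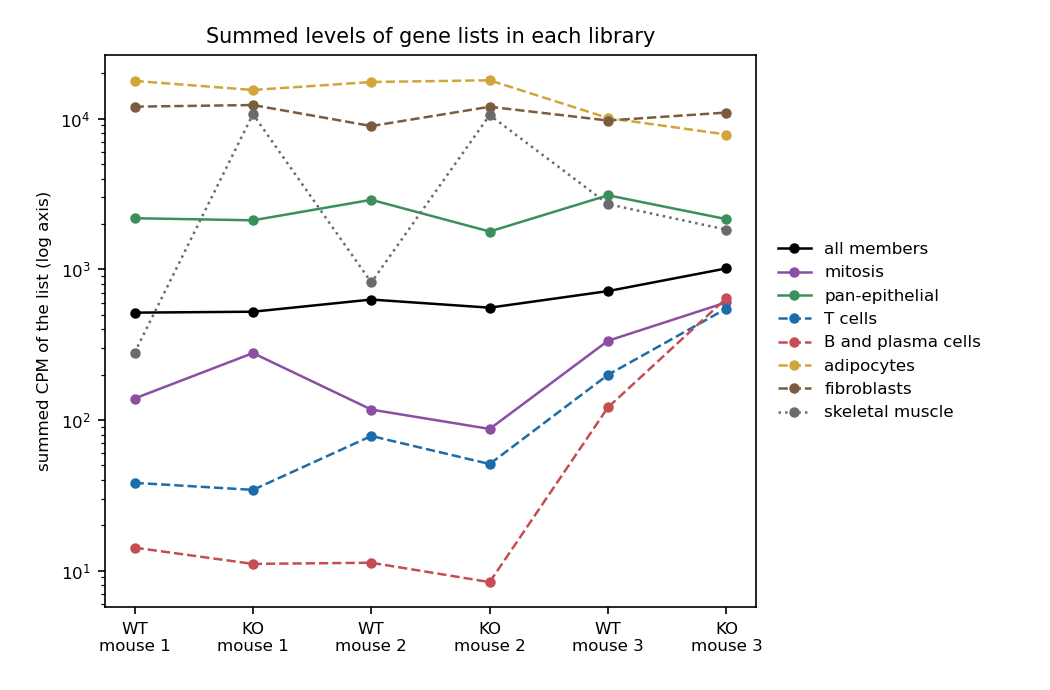
Summed CPM (y axis, log scale) of the 42 members, of the mitosis genes and of 6 lists of cell type markers in each of the 6 libraries (x axis); lines only join the points of a list. The members go from 515 to 1013 CPM between the WT gland of mouse 1 and the KO gland of mouse 3, the B cell markers reach 643 CPM there, and the pan-epithelial genes stay between 1780 and 3098 CPM.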

How the data were processed

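The authors deposited read counts per gene symbol, without normalization, in 1 column per gland. The reads were single-end, 85 bases long, and the submitters' processing notes name bcl2fastq 2.18, TopHat2 2.0.11, featureCounts 1.6.2, edgeR and the build mm9. Whether counting used the strand is not given in the sources used here, so 15 members that share exon bases with another gene may carry some of its reads or lose their own. Mapping to 1 place can also split reads between genes and their copies.

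From these counts, edgeR 4.0.16 in R 4.3.3 was fitted on the whole table with genotype and host mouse, using TMM factors, filterByExpr and the quasi-likelihood F test. Adjusted p-values are Benjamini-Hochberg values over 17345 genes. Log2 differences within a mouse used CPM with a prior count of 2. The pairing comes from the sample titles and from the contralateral grafts. After group means were removed, the 2 glands of mice 1, 2 and 3 correlated across genes at 0.512, 0.505 and 0.639. Exon lengths, positions and overlaps were taken from GENCODE M21 on GRCm38, and promoters from RefSeq on GRCm38.p6. The median biological coefficient of variation was 16.3%. The libraries were described as 3 experiments with different donors, and p-values for genotype measure the spread between these 3 pairs. Tests between host mice treat the 2 glands of a mouse as replicates, so their p-values do not measure a spread between mice. The scripts were tested on simulated data.

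The members, lists and tests were chosen with earlier results of these data known. Values in every library are given for members past the thresholds, for the smallest p and the highest CPM per kb of each role, and, chosen after their values were seen, for Mcm5, Cdc6, Mcm10, Rrm2, Tk1 and E2f2 and for the printed promoters. Alternatives were no block, DESeq2 1.42.0, limma-voom (limma 3.58.1), other scalings and filters, and each mouse left out; leaving out 1 gland of mouse 3 was added after the data were seen.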

Additional observations from a re-analysis of the deposited data

How the results depend on the processing

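The count of members higher in KO was 1 in the analysis reported, 0 without the replicate block, 27 when libraries were scaled to the summed pan-epithelial genes (12.6% of all genes were then called higher), and 0 to 6 when each mouse was left out in turn: 0 without mouse 1 (1.03% of all genes), 6 without mouse 2 (Ccne2, Mcm10, Orc1, Rrm2, Tk1 and Uhrf1; 1.82%) and 1 without mouse 3 (Ccne2; 3.34%). Epithelial scaling moved the median log2 difference of all genes to 0.42 and that of the members to 0.63. The members stayed 0.20 above all genes, as with TMM scaling, because a scaling shifts every gene by nearly the same amount. That gap is therefore no check on the members. Epithelial scaling sets the summed pan-epithelial level equal in all libraries. With TMM scaling that sum in the KO gland was 0.97, 0.62 and 0.69 times the WT sum in mice 1, 2 and 3. The median of the members lay between -0.03 and 0.38 when a mouse or 1 gland of mouse 3 was left out. It was below 0 in each case without a gland of mouse 3. With the block, all of these cases draw the genotype difference from mice 1 and 2 alone, so they are not separate checks. Members differing between host mice numbered 1 in the analysis reported, 16 by DESeq2 (19.2% of all genes), 9 with epithelial scaling (10.3%), 3 without a filter on low counts (4.5%) and 0 to 29 when a mouse or gland was left out (29 without the WT gland of mouse 3, with 23.0% of all genes), so calls rose over all genes as well. Members higher in mouse 3 numbered 7, against 23 by DESeq2 (11.4% of all genes), 11 with epithelial scaling (6.52%), 11 without the filter (6.21%) and 0 to 32 when a mouse or gland was left out. Why these counts changed between settings was not tested. The counts of members lower in KO, called by adjusted p, and lower in mouse 3 were 0 under each alternative run. Apart from Ccne2, the block changed no call of a named member. The number of mice and the depth of 53875123 or more counts per library both limit the precision.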
